A study of Mus musculus with 6 samples.

Results

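The contractile program of smooth muscle was followed here through 34 named genes, of 19938 genes tested on the arrays. The list runs from the transcriptional regulators Myocd and Srf through the actins, myosin subunits, thin filament proteins, intermediate filaments, adhesion proteins and membrane proteins of a smooth muscle cell. All 34 of the 34 genes were found on an array row that carries their symbol alone. Where a gene has more than 1 such row, the one whose mean over the 6 arrays is highest stands for it, which concerned Ppp1r12b alone.

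The study asked what activation of canonical Wnt/β-catenin signaling does to the embryonic pancreas. RNA came from whole pancreata of mouse embryos at E13.5, as 3 wild type pools (control) and 3 pools from embryos of the genotype Pdx1-Cre; Ctnnb1 tm1Mmt/+ (mutant). In the mutant embryos, Cre recombinase removes exon 3 from 1 allele of Ctnnb1, the gene of β-catenin, and the shortened protein escapes degradation. Each pool held 3 pancreata and was hybridised to 1 Affymetrix Mouse Gene ST array, and all values are log2 array values as the authors deposited them.

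The Pdx1 promoter drives Cre in the epithelium of the pancreatic buds and the adjoining foregut, whereas smooth muscle forms from the mesenchyme, which the driver is not meant to reach. Some of the genes described here are also expressed in other cell types, and which cells their values come from was not tested. The pools hold epithelium, mesenchyme, vessels and other cells together. In such bulk samples, a change in the number of cells of a type and a change in RNA per cell cannot be told apart. The methods name the wild type pools only as control embryos, without a fuller genotype.

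Smooth muscle contracts when calcium activates the kinase of the myosin light chain and phosphorylated myosin pulls on actin filaments, which are decorated with tropomyosin, calponin, caldesmon and related proteins. Most genes of this apparatus are switched on together by serum response factor (Srf), which binds a short DNA element called the CArG box, and by its muscle coactivator myocardin (Myocd). In the gut wall this program runs in the muscle layers around the epithelium, while in the embryonic pancreas it is mainly known from the walls of blood vessels.

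To show the element that Srf reads, the promoters of the members were searched for the CArG box, spelled as CC, 6 bases that are each A or T, and GG. The pattern is its own reverse complement, so 1 search covers both strands. RefSeq promoters of build GRCm38.p6, from 250 bases before to 50 bases after the start of the gene, were at hand for 30 of the 34 members (37 promoters). None was at hand for Actg2, Myh11, Myocd and Tagln. A box was present for 6 of the 30 members (20.0%), namely Actc1, Cnn2, Ldb3, Myl9, Srf and Vcl, beside 1.81% of 27025 genes with a promoter in the same table. With 1 G or C allowed among the 6 central bases, 9 of 30 members (30.0%) held a match, beside 11.3% of all genes.

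The promoters of 5 members are printed 5′ to 3′ in the direction of the gene, the boxes in capitals: Myl9 (chr2:156775214-156775513, plus strand) and Cnn2 (chr10:79988350-79988649, plus strand), which hold a box and rose in the mutant pools, Srf itself (chr17:46556113-46556412, minus strand) and Actc1 (chr2:114052826-114053125, minus strand), which hold a box and did not pass the test, and Acta2 (chr19:34255324-34255623, minus strand), which rose and holds only matches with 1 G or C inside. In the other promoters, matches of that looser kind are left in lower case.
Acta2: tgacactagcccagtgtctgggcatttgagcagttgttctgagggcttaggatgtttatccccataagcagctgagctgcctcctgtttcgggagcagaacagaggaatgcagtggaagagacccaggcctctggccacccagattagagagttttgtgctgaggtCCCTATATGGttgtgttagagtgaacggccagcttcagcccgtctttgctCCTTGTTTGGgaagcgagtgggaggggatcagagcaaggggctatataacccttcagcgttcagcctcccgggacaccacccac
Myl9: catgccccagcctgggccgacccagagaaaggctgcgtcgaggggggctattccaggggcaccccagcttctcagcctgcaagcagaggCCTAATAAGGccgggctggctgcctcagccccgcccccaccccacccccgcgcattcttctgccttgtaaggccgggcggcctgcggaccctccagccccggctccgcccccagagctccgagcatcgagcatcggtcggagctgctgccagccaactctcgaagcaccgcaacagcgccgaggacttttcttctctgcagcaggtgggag
Cnn2: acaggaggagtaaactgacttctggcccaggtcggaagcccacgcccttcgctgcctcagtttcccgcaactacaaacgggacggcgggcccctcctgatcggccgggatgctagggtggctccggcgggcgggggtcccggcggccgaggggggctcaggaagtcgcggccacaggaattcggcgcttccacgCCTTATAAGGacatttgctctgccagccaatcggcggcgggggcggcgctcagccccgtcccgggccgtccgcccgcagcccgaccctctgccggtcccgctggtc
Srf: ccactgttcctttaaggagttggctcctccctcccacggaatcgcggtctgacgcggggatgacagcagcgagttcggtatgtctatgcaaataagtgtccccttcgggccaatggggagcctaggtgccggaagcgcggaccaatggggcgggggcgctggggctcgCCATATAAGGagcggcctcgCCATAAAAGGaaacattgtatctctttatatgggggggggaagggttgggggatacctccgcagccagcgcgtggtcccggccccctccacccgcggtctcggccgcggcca
Actc1: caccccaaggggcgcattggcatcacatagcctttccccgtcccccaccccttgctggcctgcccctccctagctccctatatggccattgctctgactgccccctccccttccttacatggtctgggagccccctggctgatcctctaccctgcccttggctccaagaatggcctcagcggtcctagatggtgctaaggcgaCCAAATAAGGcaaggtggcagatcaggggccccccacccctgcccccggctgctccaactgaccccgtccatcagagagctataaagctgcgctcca

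In Acta2 the looser matches, CCCTATATGG and CCTTGTTTGG, begin 84 and 34 bases before the start. The box of Myl9, CCTAATAAGG, begins 161 bases before the start and that of Cnn2, CCTTATAAGG, 56 bases before it. Srf carries CCATATAAGG and CCATAAAAGG, beginning 82 and 62 bases before its own start, and Actc1 carries CCAAATAAGG, beginning 47 bases before. Of the members with a promoter, 2 of 12 that rose, 0 of 2 that fell and 4 of 16 that did not pass the test held a box. A match describes the letters in this window and says nothing of binding, and boxes farther away were not searched for.

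Expression of the contractile genes shifted upward in the mutant pools, but not as a block. Tested with limma, p-values adjusted by Benjamini-Hochberg over the 19938 genes and a threshold of 0.05, 15 of the 34 members were higher in the mutant pools, 2 were lower and 17 did not pass. Over all genes tested, 14.1% passed, 6.59% higher and 7.53% lower. The members were chosen with earlier results of these data known, so the shares are set side by side as a description only. The median log2 change of the members, mutant minus control, was 0.25, against 0.03 for all genes, whose central range from the 5th to the 95th percentile was -0.56 to 0.45. Of the 6 genes listed as markers of visceral smooth muscle, Acta2, Actg2, Tagln and Cnn1 rose, Des fell and Myh11 did not pass. Of the 15 members that rose, 8 did so by at least 2-fold. In all 17 members that passed, the 3 mutant pools lay outside the range of the 3 control pools, and 5 more lay above it and 1 below it without passing. Over all genes, the pools of the genotypes did not overlap in 30.9%, with the mutant pools above the control range in 16.9% and below it in 13.9%.

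These counts depend on how the arrays are scaled. With each array centred on the median that 13 housekeeping genes had on it, which itself rose by 0.38, 9 members were higher and 13 lower, and all genes split into 423 higher and 11297 lower (3.61% of calls higher, against 46.6%, or 1313 higher and 1502 lower, as deposited). Every count given below for this centring has to be read beside these 11297 of 19938 genes. Centred on the mean of 15 general mesenchyme genes, which rose by 0.21, 10 members were higher and 4 lower, with 561 genes higher and 3157 lower in all (15.1% of calls higher). The same 9 members rose in every alternative that tested them: Myocd, Acta2, Actg2, Myl9, Tagln, Cnn1, Cnn2, Synpo2 and Pde5a. Des and Kcnmb1 fell in every alternative that tested them. The other 6 that rose, Mylk, Tpm1, Tpm2, Cald1, Smtn and Actn1, lost their call in at least 1 alternative. Myocd and Acta2 were picked by the study itself on these arrays, so their direction is not independent evidence. Without this pair, 13 of 32 members were higher and 2 were lower. These 32 were also chosen with earlier results of these data known, so their count is not independent evidence either. Off the arrays, the paper reports expanded mesenchyme stained for smooth muscle actin at E13.5, and more dividing mesenchymal cells at that stage. It also names myocardin among the mesenchyme regulators raised by array and quantitative PCR.

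**Figure D1:**
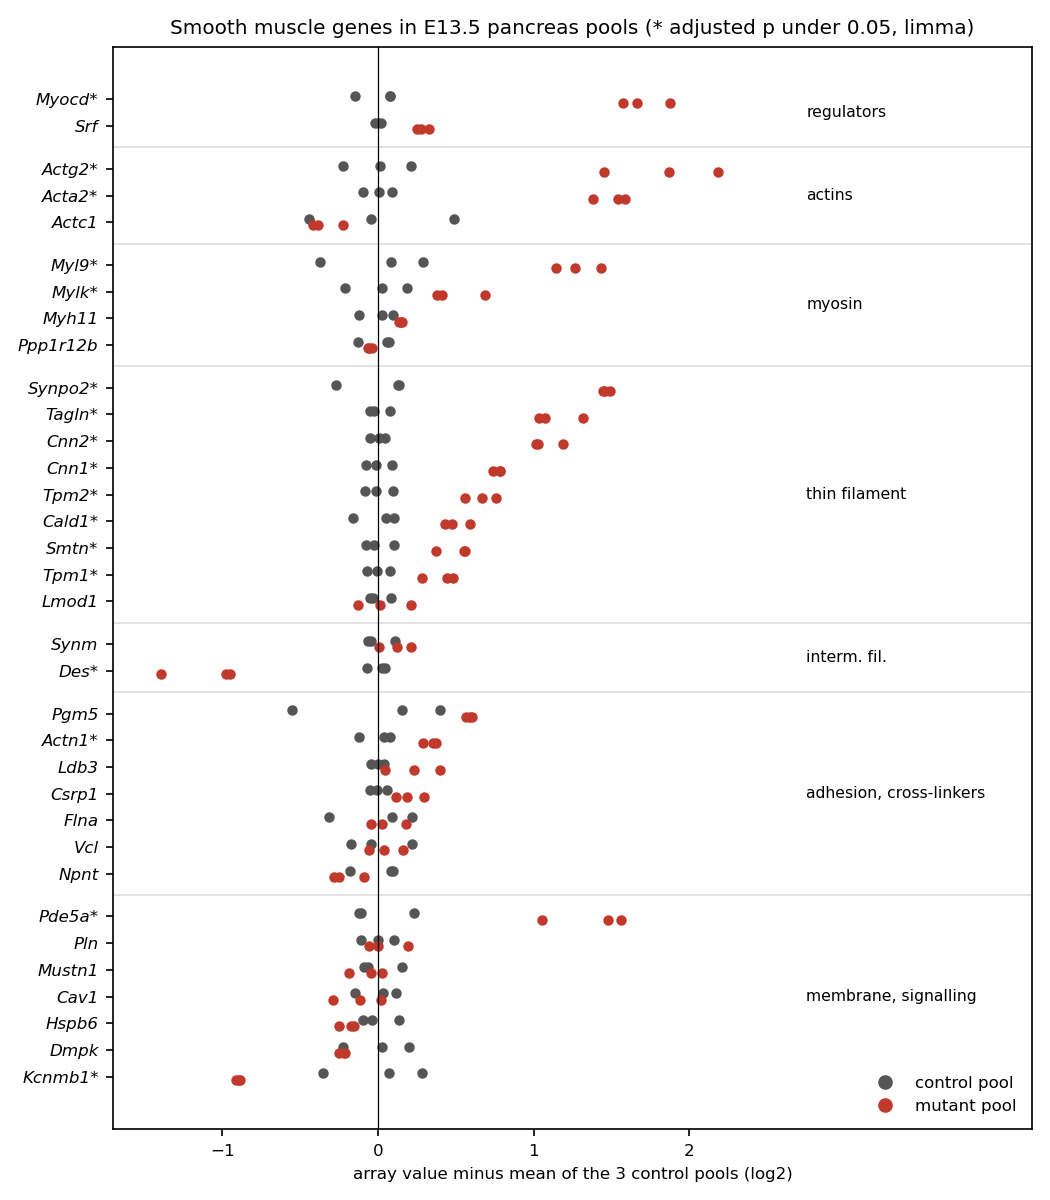
Array value of each of the 34 genes in each pool, minus the mean of the 3 control pools (log2), grouped by role, with 1 point per pool and an asterisk where the adjusted p of limma was under 0.05. Except for Lmod1, the thin filament genes form a run of mutant points to the right of the control points, Des and Kcnmb1 lie to the left, and 3 of the 7 adhesion genes overlap. Centred on the median of the housekeeping genes, 13 members were lower instead of 2, and 11297 of all 19938 genes instead of 1502.

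Of the 2 regulators, Myocd rose and Srf did not pass the test. Myocd stood at 5.80, 6.02 and 6.02 in the control pools and at 7.61, 7.52 and 7.82 in the mutant pools. All mutant pools lay more than 1 log2 unit above the highest control pool, and the change was 1.70 on the log2 scale (standard error, SE, of 0.11, 3.26-fold between the array values, adjusted p = 5.84e-06 by limma, 3 pools of each genotype). The control values lie under the medians of the arrays and may not stand above background, so the fold is that of the array values and no more. Srf read 9.27, 9.29 and 9.25 in the control pools against 9.55, 9.52 and 9.60 in the mutant pools. Its pools did not overlap either, but the change was small, 0.28 on the log2 scale (95% confidence interval 0.10 to 0.47), and missed the threshold at an adjusted p of 0.0526 by limma. Srf passed in 6 alternatives, among them arrays centred on their own medians (0.32, adjusted p = 0.0289 by limma), and its value turned to -0.09 with arrays centred on the median of the housekeeping genes.

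Of 11 other partners of Srf tested, 1 was higher, 1 was lower and 9 did not pass as deposited, with a median log2 change of -0.05. With arrays centred on the median of the housekeeping genes, 1 was higher and 8 were lower, and with array weights 3 were higher and 4 lower. Over all 19938 genes, 11297 were lower with that centring and 2422 with array weights. Hey2, a repressor of the Notch pathway that acts in vascular smooth muscle, rose by 1.10 (SE 0.12, adjusted p = 0.000177 by limma). Prrx1, a homeobox factor of mesenchyme, fell by 2.49 on the log2 scale (SE 0.14, adjusted p = 2.10e-06), from 10.30 to 10.37 in the control pools to 7.53 to 8.12 in the mutant pools. Mrtfa and Mrtfb, the coactivators that link Srf to the state of the actin cytoskeleton, are named after their values were seen, with log2 changes of 0.03 and -0.30, neither past the test. Mrtfb passed as lower with the mean of all its rows (-0.40, adjusted p = 0.0258 by limma), with array weights (adjusted p = 0.0479) and with arrays centred on the median of the housekeeping genes (-0.68, adjusted p = 0.00351), where Mrtfa turned to -0.35. Of 8 early genes that Srf switches on after growth signals, which use the same DNA element without myocardin, Ccn1, a matricellular protein, rose by 0.56 (SE 0.10, adjusted p = 0.00311 by limma) and 7 did not pass, with a median of 0.10.

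Both smooth muscle actins rose and the cardiac one did not pass. Actg2, the γ-actin of enteric smooth muscle, read 6.67, 6.86 and 6.42 in the control pools against 8.52, 8.10 and 8.83 in the mutant pools. Its log2 change of 1.84 (SE 0.18, 3.57-fold, adjusted p = 8.55e-05 by limma) was the largest of the 34 genes. Acta2, the α-actin used as a marker of smooth muscle, read 9.71, 9.79 and 9.61 against 11.29, 11.09 and 11.25. The mutant pools again lay far above the control pools, 2.83-fold higher on average (95% confidence interval of the log2 change 1.28 to 1.72, SE 0.10, adjusted p = 5.73e-06 by limma). Actc1, the α-actin of the heart that embryonic smooth muscle can also express, spread from 6.71 to 7.64 in the control pools and from 6.73 to 6.93 in the mutant pools. Its groups overlapped, and the log2 change of -0.34 had a 95% confidence interval of -0.78 to 0.10. With arrays centred on the median of the housekeeping genes Actc1 was lower (-0.72, adjusted p = 0.0104 by limma). The coding sequences of the actins are nearly identical, so array probes may be shared between them, and which probes the rows rest on was not analysed here.

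**Figure D2:**
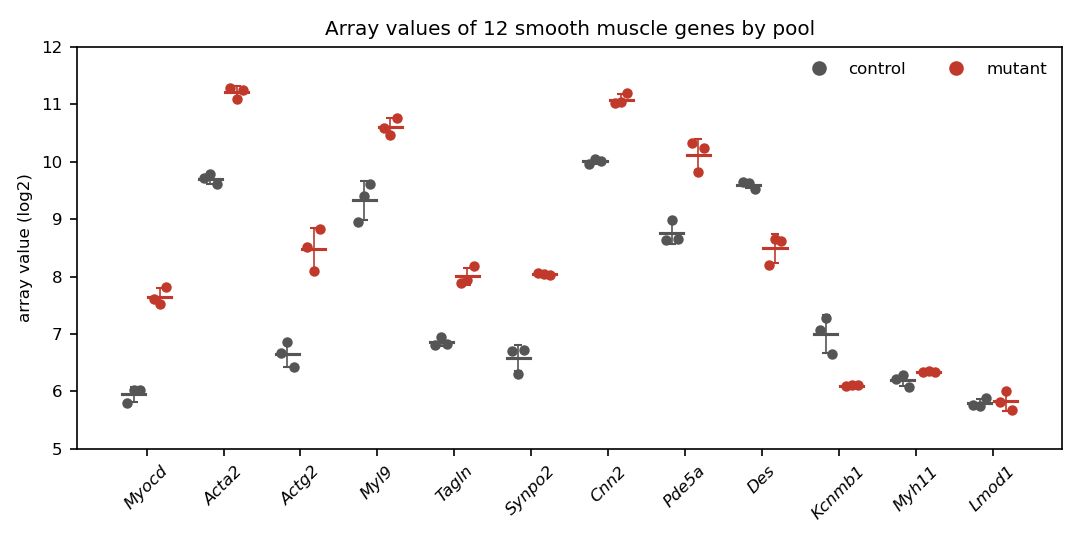
Array values (log2) of 12 of the genes in each pool, with 1 point per pool, a bar at the mean and whiskers of 1 SD (n = 3 pools per genotype). The first 8 genes have every mutant pool above every control pool, Des and Kcnmb1 have them below, and the control and mutant pools of Myh11 and Lmod1 lie close together. Levels of different genes are not comparable on this axis.

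Among the myosin genes, the light chain and its kinase rose and the heavy chain did not pass. Myl9, the regulatory light chain of smooth muscle myosin, read 8.96, 9.41 and 9.62 in the control pools against 10.60, 10.47 and 10.76 in the mutant pools. The control pools differed among themselves by more than the mutant pools did, and the change was 1.28 (SE 0.16, 2.43-fold, adjusted p = 0.000439 by limma). Mylk, the kinase that phosphorylates this light chain, read 7.46, 7.22 and 7.62 against 8.12, 7.81 and 7.85, a change of 0.49 (SE 0.13, adjusted p = 0.0302 by limma). Its call was lost in turn without control replicate 1, control replicate 2, mutant replicate 1 and mutant replicate 3, with adjusted p from 0.0530 to 0.130.

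Myh11, the heavy chain that marks differentiated smooth muscle, read 6.22, 6.29 and 6.07 in the control pools against 6.34, 6.35 and 6.33 in the mutant pools. The mutant pools lay above the control pools without overlap but by very little, with a log2 change of 0.15, a 95% confidence interval of -0.06 to 0.35 and an adjusted p of 0.387 by limma. The upper end of that interval lies below the change of either smooth muscle actin. All 6 values of Myh11 lie under the medians of the arrays and may not stand above background. The comparison with the actins is therefore one of array values and does not show that Myh11 RNA rose less. Ppp1r12b, a targeting subunit of the phosphatase that reverses the action of Mylk, overlapped between the groups at -0.05 (95% confidence interval -0.26 to 0.15). Its 7 rows ranged from -0.22 to 0.41 and none passed when all rows were tested together (adjusted p = 0.0688 for the row at 0.41). With arrays centred on the median of the housekeeping genes Ppp1r12b was lower (-0.43, adjusted p = 0.00757 by limma).

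Nearly all thin filament genes rose. Of 9 genes, 8 rose and none fell, with a median log2 change of 0.66; with arrays centred on the median of the housekeeping genes 4 were higher and 1 was lower, and with arrays centred on the general mesenchyme genes 5 were higher. Synpo2, a protein that bundles actin at dense bodies and Z-discs, read 6.71, 6.31 and 6.72 in the control pools against 8.07, 8.04 and 8.03 in the mutant pools. The 3 mutant pools were nearly alike, and the log2 change was 1.47 (SE 0.12, 2.76-fold, adjusted p = 2.62e-05 by limma). Tagln, the actin-binding protein SM22α, read 6.81, 6.94 and 6.83 against 7.89, 7.93 and 8.18, a change of 1.14 (SE 0.10, 2.20-fold, adjusted p = 5.40e-05). Both calponin genes of the list rose. Cnn2 read 9.95, 10.05 and 10.02 against 11.02, 11.04 and 11.19, a change of 1.08 (SE 0.09, 2.11-fold, adjusted p = 3.41e-05). Cnn1, the calponin specific to smooth muscle, read 5.74, 5.90 and 5.80 against 6.60, 6.55 and 6.60, a change of 0.77 (SE 0.09, adjusted p = 0.000265). In all 4 of these genes the lowest mutant pool stood above the highest control pool by more than the spread within either genotype.

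The tropomyosins and the remaining filament regulators rose by less. Tpm2 read 7.40, 7.33 and 7.51 in the control pools against 8.08, 7.97 and 8.17 in the mutant pools, and Tpm1 read 10.43, 10.52 and 10.37 against 10.92, 10.72 and 10.88. Neither gene overlapped between the genotypes, with log2 changes of 0.66 for Tpm2 (adjusted p = 0.0012 by limma) and 0.40 for Tpm1 (adjusted p = 0.0192). Caldesmon (Cald1), which holds actin and myosin apart at rest, read 9.86, 9.65 and 9.91 against 10.28, 10.23 and 10.40. Smoothelin (Smtn), found on the actin of contractile smooth muscle, read 8.54, 8.72 and 8.59 against 9.17, 8.99 and 9.18. Each of the latter pair rose by 0.50 on the log2 scale (SE 0.10 for both), with adjusted p of 0.00896 for Cald1 and 0.00727 for Smtn by limma. The call of Tpm1 was lost without control replicate 1 or 3 and without mutant replicate 1 or 3, with adjusted p from 0.0637 to 0.0998.

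Leiomodin (Lmod1), which nucleates actin filaments in smooth muscle, was the exception of this group. It read 5.77, 5.75 and 5.88 in the control pools against 5.81, 6.01 and 5.67 in the mutant ones. The mutant pools lay on both sides of the control pools, with a log2 change of 0.03 (95% confidence interval -0.21 to 0.27), which turned to -0.35 with arrays centred on the median of the housekeeping genes.

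Des ran against the thin filament genes. It encodes desmin, the intermediate filament of muscle cells that links dense bodies and is also made by some mesenchymal cells. The control pools read 9.64, 9.62 and 9.53, and the mutant pools read 8.20, 8.65 and 8.62. Every mutant pool lay well below the control pools, with a log2 change of -1.11 (SE 0.13, 2.15-fold lower, adjusted p = 0.000244 by limma). Synm, the gene of synemin, which co-assembles with desmin, overlapped between the groups, with a change of 0.11 (95% confidence interval -0.11 to 0.33).

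The adhesion and cross-linking genes mostly did not pass. Actn1, an α-actinin that cross-links actin, read 11.03, 10.99 and 10.83 in the control pools against 11.30, 11.24 and 11.32 in the mutant pools. Its log2 change of 0.34 (SE 0.09, adjusted p = 0.0374 by limma) was lost without any 1 of the 3 control pools and without the mutant pools 1 or 3, at adjusted p between 0.0619 and 0.135, and turned to -0.04 with arrays centred on the median of the housekeeping genes. Pgm5, a protein of adherens junctions related to phosphoglucomutase, read 9.92, 9.21 and 10.16 against 10.37, 10.36 and 10.33. The mutant pools were nearly alike and the control pools were not, and the change of 0.59 (95% confidence interval 0.14 to 1.04) had an adjusted p of 0.0897 by limma. It passed without control replicate 3, at 0.79 and an adjusted p of 0.0292, and with array weights, at 0.53 and an adjusted p of 0.0151.

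Of the remaining adhesion genes, Csrp1, a LIM protein, and Ldb3, a protein of the Z-disc, lay above the control pools without overlap at log2 changes of 0.20 (95% confidence interval -0.01 to 0.41) and 0.22 (-0.02 to 0.46). Filamin A (Flna) and vinculin (Vcl), which tie actin to the membrane in many cell types, overlapped and stood at 0.05 each, with intervals of -0.26 to 0.37 and -0.22 to 0.31. Both turned to -0.33 with arrays centred on the median of the housekeeping genes. Npnt, the gene of nephronectin, a matrix ligand of integrin α8, overlapped at -0.21 (-0.45 to 0.03). Npnt passed as lower in 3 alternatives by limma: centred on the median of the housekeeping genes (-0.59, adjusted p = 0.00156), with array weights (-0.28, adjusted p = 0.0224) and centred on the general mesenchyme genes (-0.42, adjusted p = 0.0369). Csrp1 passed as higher with array weights (0.27, adjusted p = 0.0188 by limma).

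Membrane and signaling genes moved in opposite directions. Pde5a, the phosphodiesterase that breaks down cyclic GMP in smooth muscle, read 8.64, 8.99 and 8.65 in the control pools against 10.32, 9.82 and 10.24 in the mutant pools. All mutant pools lay above all control pools, with a log2 change of 1.36 (SE 0.15, 2.57-fold, adjusted p = 0.000191 by limma). Kcnmb1, the β subunit that tunes the large-conductance calcium-activated potassium channel of smooth muscle, read 7.07, 7.28 and 6.65 against 6.09, 6.10 and 6.11. The mutant pools fell into a narrow range below all control pools, a change of -0.90 (SE 0.15, 1.86-fold lower, adjusted p = 0.00219 by limma). The mutant values of Kcnmb1 lie under the medians of the arrays and may not stand above background, so the fold is that of the array values and no more.

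The other 5 genes of this group did not pass. Hspb6, a small heat shock protein of muscle, lay below the control pools without overlap at -0.19 (95% confidence interval -0.41 to 0.02). Dmpk, a kinase of muscle, stood at -0.23 (-0.48 to 0.03), caveolin 1 (Cav1) at -0.13 (-0.38 to 0.12), Mustn1 at -0.07 (-0.30 to 0.17) and phospholamban (Pln), which restrains the calcium pump of the sarcoplasmic reticulum, at 0.05 (-0.19 to 0.28). All 4 overlapped between the groups. With arrays centred on the median of the housekeeping genes, 6 of the 7 membrane and signaling genes were lower and 1 was higher, beside 11297 of all 19938 genes lower. Hspb6 also passed as lower with arrays centred on the general mesenchyme genes (-0.40, adjusted p = 0.0361 by limma).

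The same division was looked for in 48 other genes linked to smooth muscle. Among them 17 rose, 3 fell and 28 missed the threshold, with a median log2 change of 0.17. With arrays centred on the median of the housekeeping genes, 12 were higher and 19 lower, and centred on the general mesenchyme genes 12 were higher and 5 lower. The muscarinic receptors Chrm2 and Chrm3, through which acetylcholine contracts visceral smooth muscle, rose by 1.79 (SE 0.18, adjusted p = 0.000103 by limma) and 1.77 (SE 0.12, adjusted p = 8.00e-06). Chrm3 read 6.38, 6.53 and 6.41 in the control pools against 8.46, 8.02 and 8.13 in the mutant pools. Dtna, a dystrobrevin of the dystrophin complex, rose by 1.61 (SE 0.10, adjusted p = 4.31e-06). None of the 3 overlapped between the genotypes.

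The 3 genes of that list that were lower are named after their values were seen. Cacna1c, the pore of the L-type calcium channel that lets in the calcium for contraction, read 8.12, 7.99 and 8.17 in the control pools against 6.79, 6.83 and 6.81 in the mutant pools, so that its change was -1.29 (SE 0.09, adjusted p = 8.74e-06 by limma). Kcnma1, the pore subunit with which the Kcnmb1 protein assembles, read 7.12, 7.36 and 7.28 against 6.36, 6.37 and 6.32, a change of -0.90 (SE 0.10, adjusted p = 0.000148). Both channel genes lay below the control range in every mutant pool. The mutant values of Kcnma1 lie under the medians of the arrays and may not stand above background. Sorbs2, an adaptor between actin and the membrane, fell by 0.66 on the log2 scale (SE 0.11, adjusted p = 0.0028). Several of these genes are also active in neurons and endocrine cells, and the part of such cells in the result was not tested.

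Genes around Pde5a and Mylk in their pathways, also named after their values were seen, were looked at next. Prkg1, the kinase that cyclic GMP activates, rose by 0.72 (SE 0.11, adjusted p = 0.00159 by limma). Gucy1b1, a subunit of the cyclase that makes cyclic GMP, rose by 0.59 (SE 0.12, adjusted p = 0.0091), and its partner subunit Gucy1a1 stood at 0.42 with an adjusted p of 0.0528 (0.53 and 0.0175 by limma without mutant replicate 2). Ppp1r14a, an inhibitor of myosin phosphatase, rose by 0.82 (SE 0.11, adjusted p = 0.000508).

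Whether muscle forms moved apart from the forms that all cells use was examined in 9 pairs of related genes, chosen after their values were seen. In each pool the difference between the member and its non-muscle relative was taken, and since the pairs were chosen in that way it is given as a description, without a test. In 7 of 9 pairs the difference was larger in every mutant pool than in every control pool. Taken singly, 16.9% of all genes tested had every mutant pool above the control range, and the share among other pairs of genes was not computed. Actn1 and Actn4, 1 of these 7 pairs, are both non-muscle α-actinins, so that pair does not set a muscle form against a general one. Tagln rose and Tagln2, its widely expressed relative, fell by 0.37 on the log2 scale (adjusted p = 0.0228 by limma), which put the pair 1.51 apart (SE 0.09). For Acta2 and Actb, the β-actin of all cells, the difference was 1.42 (SE 0.11), with Actb at 0.08 and an adjusted p of 0.637 by limma.

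The gap was smaller in the other pairs. It was 0.86 (SE 0.15) between Myl9 and Myl12a, where the non-muscle light chain also rose, by 0.42 (adjusted p = 0.0182 by limma). The difference was 0.51 between Cnn1 and Cnn3, 0.40 between Tpm1 and Tpm3, 0.25 between Actn1 and Actn4, and 0.20 between Tpm2 and Tpm4, where Tpm4 itself rose by 0.46 (adjusted p = 0.006 by limma). The pools of Myh11 minus Myh9 overlapped (0.54, SE 0.28), as did those of Ppp1r12b minus Ppp1r12a (0.01, SE 0.08). The calls of Tagln2 (when control pool 2 or 3 or mutant pool 1 or 3 was left out) and Myl12a (when control pool 1 or 2 or mutant pool 1 or 3 was left out) were lost at adjusted p from 0.0552 to 0.108, and Myh9 passed without control replicate 2 (adjusted p = 0.00768 by limma). A difference within an array does not depend on how that array is centred. A list of 16 genes held non-muscle actin and myosin genes and other structural genes, among them Vim, Zyx, Tln1 and Lmna. Of these 16, 2 were higher and 2 lower, with a median log2 change of -0.02. With arrays centred on the median of the housekeeping genes, where 11297 of all 19938 genes were lower, none of the 16 was higher and 12 were lower. Lmna, the nuclear lamin, was the one that fell most, by 0.55 on the log2 scale (adjusted p = 0.00331 by limma).

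**Figure D3:**
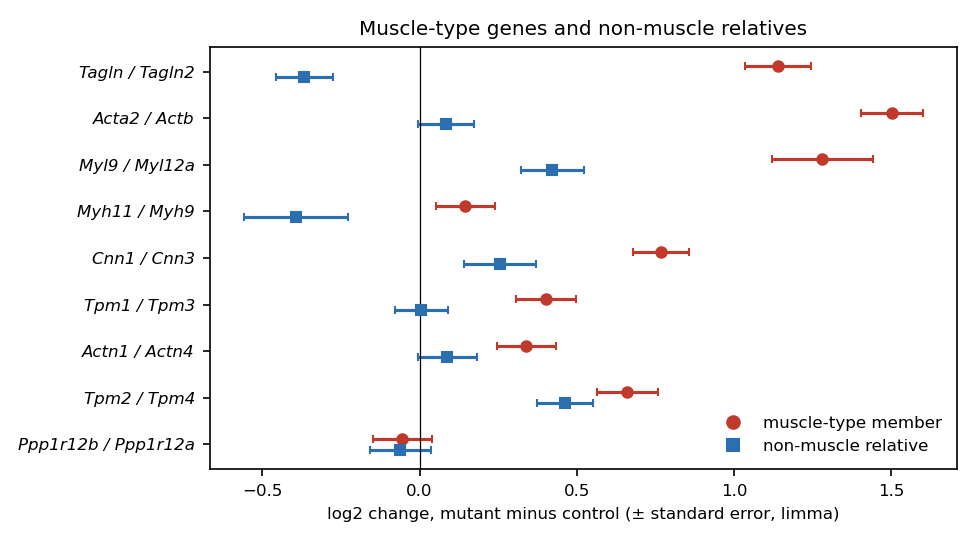
Log2 change, mutant minus control, of 9 members (circles) and of a non-muscle relative of each (squares), with bars of 1 standard error (SE) from limma (n = 3 pools per genotype). Actn1, drawn as a member, is itself a non-muscle form. Member and relative lie farthest apart for Tagln and Tagln2, at 1.14 and -0.37, and together for Ppp1r12b and Ppp1r12a; with arrays centred on the median of the housekeeping genes, every point moves left by 0.38, which puts Actb, Tpm3, Actn4, Actn1, Myh11 and Cnn3 below 0 as well, and the distances within a pair stay as drawn.

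Markers of other cells moved beside the contractile genes, and their part in these results was not tested. Neurog3, Pdx1 and Cpa1, genes of the pancreatic epithelium, were looked at first. The study itself listed all of them as lower on these same arrays, so they are no independent check of the tissue. Neurog3, the factor that starts the endocrine lineage, read 10.72 to 11.50 in the control pools and 6.21 to 6.66 in the mutant pools. Pdx1 read 9.87 to 9.97 in the control pools and 5.59 to 5.87 in the mutant pools, and Cpa1 read 13.10 to 13.29 against 9.05 to 9.52. All 10 epithelial genes listed were lower, and their values, taken off the log2 scale and summed, went from 20217 to 23696 in the control pools to 3896 to 4305 in the mutant pools. Such sums, here and below, weigh the rows with the highest values most and do not count cells. Axin2, a target of canonical Wnt signaling named after its values were seen, rose by 1.47 (adjusted p = 2.94e-05 by limma), and Ctnnb1 itself stood at 0.28 without passing, which is no check of the deletion, since the shortened transcript is still made.

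General mesenchyme genes moved as well. Of 15, 6 were higher and 1 lower (none and 5 with arrays centred on the median of the housekeeping genes), with a median log2 change of 0.32 and summed values of 24903 to 26070 in the control pools and 25439 to 27557 in the mutant pools. Lum, a matrix proteoglycan, rose by 0.84 (adjusted p = 0.0394 by limma), Fn1, fibronectin, by 0.64 (adjusted p = 0.00208) and Twist1 by 0.57 (adjusted p = 0.0102). Vim, the row of that list with the highest mean, stood at -0.02, and Col1a1, the one that was lower and named after its values were seen, fell by 0.45 on the log2 scale (adjusted p = 0.0188). The call of Lum was lost without any 1 pool except control replicate 3, with adjusted p from 0.0526 to 0.116 by limma and a change of 0.53 without control replicate 1, and that of Col1a1 when control pool 1, control pool 3 or mutant pool 3 was left out, from 0.0642 to 0.0836. Centred on this list, 10 contractile genes were higher.

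Regulators of gut mesenchyme rose in 11 of 12 cases, with a median log2 change of 1.61, though several of them were picked by the study on these same arrays. Foxf2, a forkhead factor of visceral mesenchyme, read 5.25 to 5.48 in the control pools and 8.86 to 9.66 in the mutant pools, Foxf1 read 8.20 to 8.53 against 11.82 to 11.99, and Bmp4, a signal made by gut mesenchyme, read 9.19 to 9.41 against 11.36 to 11.63. None of the 12 was lower, and with arrays centred on the median of the housekeeping genes 10 were higher and 1 lower.

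Vessels carry smooth muscle too, and vessel genes gave a mixed picture. Of 13 genes of vascular mural cells, the pericytes and muscle cells of vessel walls, 4 were higher and 2 were lower, with a median log2 change of 0.16. Their summed values went from 6200 to 6300 in the control pools to 8495 to 8917 in the mutant pools. That sum rests largely on Kcnj8 and Pdgfrb, the rows with the highest means, which went from 10.34 to 11.27 and from 10.80 to 11.20 on average. With arrays centred on the median of the housekeeping genes, 1 was higher and 5 were lower. Rgs5, a pericyte marker, fell by 0.95 on the log2 scale (adjusted p = 0.000193 by limma) and Ntn4 by 0.78 (adjusted p = 0.00131), whereas Kcnj8, a channel of pericytes, rose by 0.93 (adjusted p = 0.000181) and Pdgfrb, also on the mesenchyme list and the row with the highest mean here, by 0.40 (adjusted p = 0.0208). Of 14 endothelial genes, 3 were higher and none was lower, with a median of 0.27 and summed values of 7776 to 8344 against 9093 to 9758 (1 higher and 5 lower with arrays centred on the median of the housekeeping genes). Sox17, a factor of arteries that is also made in endoderm, rose by 1.99 (adjusted p = 3.50e-06 by limma), Erg by 0.42 (adjusted p = 0.0247) and Cdh5, the endothelial cadherin and the row with the highest mean, by 0.32 (adjusted p = 0.0417). The value of Cdh5 turned to -0.06 with arrays centred on the median of the housekeeping genes, and its call was lost when any 1 of the 6 pools was left out, with adjusted p from 0.0561 to 0.153. Erg lost its call when control pool 1, control pool 3, mutant pool 1 or mutant pool 3 was left out, with an adjusted p of at least 0.0556. Pdgfrb lost its call when control pool 2, control pool 3, mutant pool 1 or mutant pool 3 was left out (0.0579 to 0.107).

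As deposited, few genes of striated muscle passed the test, whereas with arrays centred on the median of the housekeeping genes 17 of 25 skeletal and 11 of 20 cardiac muscle genes were lower. That centring put 11297 of all 19938 genes lower, so these counts are not particular to striated muscle. Of the 25 skeletal muscle genes, 1 was higher and none was lower as deposited, with a median log2 change of 0.06 and summed values of 1595 to 1686 in the control pools and 1585 to 1828 in the mutant pools. Chrnd, a subunit of the muscle acetylcholine receptor, was the one that rose, by 1.10 (adjusted p = 0.00471 by limma), and Tnni1, the row with the highest mean, stood at 0.26 without passing. Myod1 and Myog, the master regulators of skeletal muscle, named after their values were seen, read 6.01 to 6.29 and 5.36 to 5.75 over all 6 pools, and Myod1 was lower at -0.36 with arrays centred on the median of the housekeeping genes. Of 20 cardiac genes, Nkx2-5, a homeobox factor also active in the mesoderm of the stomach and spleen, rose by 0.65 (adjusted p = 0.00248) and 19 did not pass, with a median of 0.02 and summed values of 2239 to 2503 against 2417 to 2603. Hand2, the row with the highest mean there, stood at 0.06, or -0.32 with arrays centred on the median of the housekeeping genes.

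Of 10 genes of the mesothelium, the lining of the organ, 4 were lower and none was higher, with a median log2 change of -0.37 and summed values of 3978 to 4666 against 3347 to 4222. With arrays centred on the median of the housekeeping genes, 9 of the 10 were lower, beside 11297 of all 19938 genes. Lrrn4 fell by 0.94 on the log2 scale (adjusted p = 0.00197 by limma), Krt19, which is also on the list of the pancreatic epithelium, by 0.79 (adjusted p = 0.00217) and Wt1 by 0.52 (adjusted p = 0.0313). The call of Wt1 was lost when any of the 3 control pools or mutant pool 1 was left out, with adjusted p from 0.0673 to 0.0928. Podxl, the row with the highest mean, stood at 0.02, or at -0.36 with arrays centred on the median of the housekeeping genes. Of the 13 housekeeping genes tested, 3 were higher and 1 lower, with a median of 0.08. Pgk1, an enzyme of glycolysis, rose by 0.64 (adjusted p = 0.0017 by limma) and Tfrc, the transferrin receptor, by 0.43 (adjusted p = 0.03), while Gusb, a lysosomal enzyme, fell by 0.67 on the log2 scale (adjusted p = 0.0011). Tfrc lost its call without any 1 pool except mutant replicate 2, with adjusted p from 0.0545 to 0.136 by limma.

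**Figure D4:**
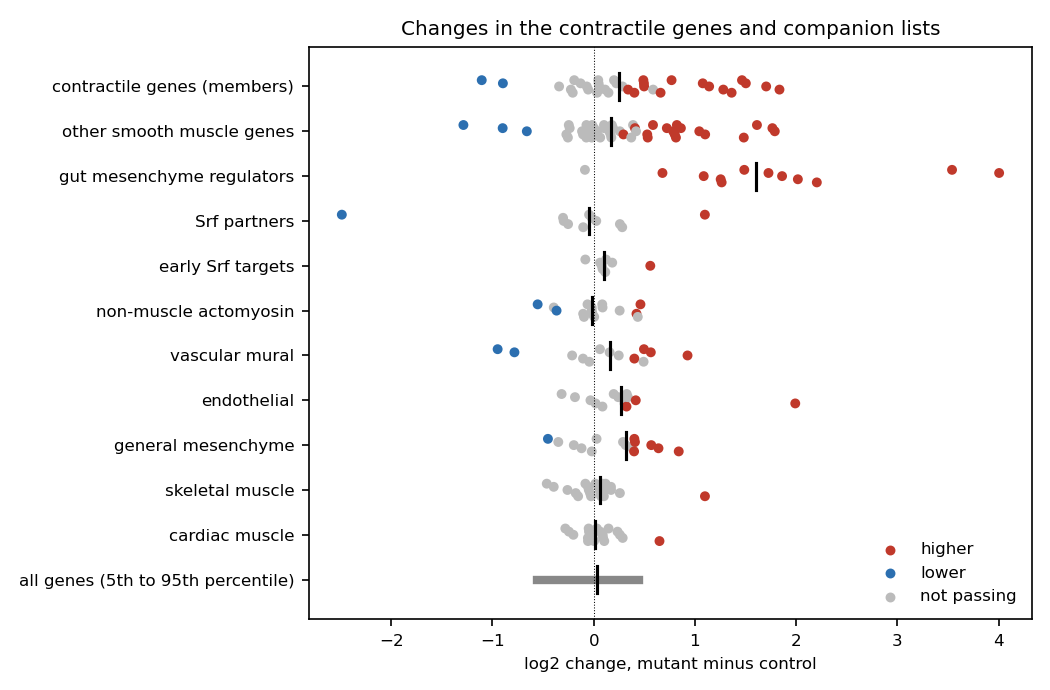
Log2 change, mutant minus control, of each gene in the contractile list and in 10 companion lists (n = 3 pools per genotype), coloured by the outcome of limma, with a black tick at each list's median and, for all genes, a bar from the 5th to the 95th percentile. The contractile genes spread from -1.11 to 1.84 around a median of 0.25, the gut mesenchyme regulators lie around 1.61, and the skeletal and cardiac muscle genes lie around 0.06 and 0.02; with arrays centred on the median of the housekeeping genes every point moves left by 0.38.

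Pools of a genotype were alike. Correlations between arrays over the 19938 genes tested were 0.993 to 0.997 within a genotype and 0.973 to 0.979 between genotypes. Array medians, taken over all rows, lay between 6.37 and 6.47. The mean of the 34 genes was 8.26, 8.29 and 8.32 in the control pools against 8.70, 8.65 and 8.71 in the mutant pools. Mutant replicate 2 held the lowest mutant value in 16 of the 34 genes and mutant replicate 1 in 6. As no detection calls were used, whether a low row such as those of Myocd, Lmod1, Cnn1 or Myh11 is above background is not known. The number of arrays and the spread between pools limit the precision.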

How the data were processed

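Whole pancreata of E13.5 embryos were pooled by 3 per sample, and 3 control and 3 mutant pools were hybridised to Affymetrix Mouse Gene ST arrays. Genotype and replicate number came from the sample labels, which call the samples biological replicates, and the pool size came from the methods. The values are log2 expression values that the authors deposited, 1 for each transcript cluster of the array. The steps of background correction, summarization and normalization were not given in the sources used. Of 35556 rows, 21789 carried a single symbol and were used, while 1621 with several symbols and 12146 without one were left out. For each of the 999 genes on more than 1 row, the row of highest mean was kept, which left 19938 genes. The Entrez identifiers of 21698 rows matched RefSeq genes, which changed 0 symbols.

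Mutant and control pools were compared in R 4.3.3 by limma 3.58.1, the tool that the methods name, using lmFit and eBayes without covariates and without a filter on dim rows, with the Benjamini-Hochberg adjustment over all 19938 genes at 0.05. The step was tested on simulated data with the spread of these pools. It recovered 43.3% of changes of 0.5 on the log2 scale, 84% of changes of 1 and 99.3% of changes of 2. Of the unchanged genes, 0.0405% were called. A member that did not pass may therefore still have changed, by 0.5 or, less often, by 1 on the log2 scale. The simulation changed a far smaller share of genes than the 14.1% that passed here, so the rates for the members may differ. All changes are mutant minus control, and intervals are 95% intervals from the same model.

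The 34 members and the companion lists were chosen with earlier results of these data known. All members were described. From each companion list up to 3 genes that passed the test and changed most were named, and for lists of other cell types also the row with the highest mean. Other names are marked as given after their values were seen. Promoters came from RefSeq (GRCm38.p6). Alternatives used the replicate number as a block, each pool left out, arrays centred on their medians, on the housekeeping genes or by quantiles, filters on level, the mean of a gene's rows, all rows, a trended prior, array weights, a stricter threshold and, for the CArG box, 1 G or C inside it. Added after seeing the data were centring on the general mesenchyme genes or on the housekeeping mean, and counts without the study's own picks.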

Additional observations from a re-analysis of the deposited data

How the results depend on the processing

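With arrays centred on the median of the housekeeping genes, 9 members were higher and 13 lower, against 15 and 2. The median of these 13 genes rose by 0.38 and their mean by 0.04; centred on the mean, 13 were higher and 2 lower. Centring on the general mesenchyme genes, added after seeing the data, gave 10 higher and 4 lower. Among the 24 members above the median level, 14 were higher and 1 lower, since Kcnmb1 was not tested there. Other settings gave 10 to 18 higher and 2 or 3 lower, and leaving out 1 pool in turn gave 12 to 15 higher and 2 lower. Among values past the test in either setting, the direction turned only under the housekeeping median: Lmod1 (-0.35), Vcl (-0.33), Flna (-0.33), Actn1 (-0.040), Pln (-0.33), Mrtfa (-0.35), Actb (-0.30), Tpm3 (-0.37), Actn4 (-0.29), Cdh5 (-0.056), Hand2 (-0.32), Podxl (-0.36) and Myod1 (-0.36). Over all genes, array weights gave 3025 higher and 2422 lower (55.5% of calls higher), all rows in the fit 751 and 1028, and the fit without mutant replicate 1 gave 843 and 1132, against 1313 and 1502. The cause was not tested. The sign of values that passed in neither setting also changed, in 58 values over 22 genes, at most 0.27 from 0 in the alternative.

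Whether the replicate numbers pair the pools is not known, since the labels do not say what the numbers stand for. Deviations of same-numbered pools from their group means correlated at 0.01, -0.15 and -0.05 over genes. Pools of different numbers ranged from -0.19 to 0.19, so these values cannot settle it. With the replicate number as a block, 13 members were higher and 2 lower, and Tpm1 (adjusted p = 0.0577 by limma) and Actn1 (adjusted p = 0.0829) lost their calls.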
